A study of Brassica napus with 36 samples.

Results

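DEAD-box RNA helicases and glycine-rich RNA-binding proteins were followed in leaves of rapeseed (Brassica napus) exposed to cold. The genes were chosen by annotation alone: a gene was included when the description of its Swiss-Prot match named a DEAD-box ATP-dependent RNA helicase or a glycine-rich RNA-binding protein. This gave 272 of the 106340 genes in the deposited table, 208 helicases and 64 glycine-rich proteins, which matched 67 different Swiss-Prot entries. Of the 272, 258 matched an Arabidopsis protein, and the other matches included proteins of mustard, rapeseed and carrot. The A subgenome held 125 of them, the C subgenome 145, and 2 were on neither.

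DEAD-box helicases use ATP to open short RNA duplexes and to move proteins off RNA, and they serve ribosome assembly, splicing, export, translation and decay of RNA. Glycine-rich RNA-binding proteins carry an RNA-recognition motif or a cold shock domain next to a glycine-rich tail, and several act as RNA chaperones, which keep RNA from being trapped in stable folds. Since RNA structure becomes more stable as temperature falls, both families are known from work on cold in bacteria and plants.

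The study sequenced leaf RNA of 2 early-maturing varieties of semi-winter rapeseed, HX17 and HX58, in 36 libraries that form 12 groups of 3, from the leaf in position 3 collected at 8 am. Plants of group MA and of group MB were the controls, each kept for 6 weeks at 20° by day and 16° by night and for a further 12 h at 20°. Cold-acclimated plants had 4 weeks at 20° and 16°, then 14 days at 4°, and were finally held for 12 h at 4° (CA, chilling) or at -4° (FA, freezing). Non-acclimated plants had 6 weeks at 20° and 16° and then 12 h at 4° (CB, chilling) or at -4° (FB, freezing).

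Counts summed to between 32214015 and 59290772 per library. Leaf markers were high in every library, with summed FPKM of 28825 to 117232 for the Rubisco small subunit and 48764 to 188274 for light-harvesting proteins, and seed storage proteins were at or near 0, with at most 1.86 for cruciferins and 0.721 for napins. FPKM here is the deposited level per gene, counted reads scaled for the length of the gene and the total of the library. The endodermal CASP genes summed to 1.93 to 21.1 FPKM and AGAMOUS to at most 2.55. Of the 272 genes, 29 had no count in any library and 184 had a mean of at least 1 FPKM, of which 5 reached 100. After the filter on low counts, 215 were tested in at least 1 of the 8 comparisons of a cold treatment with its control, 172 in all 8, and 57 in none. Glycine-rich proteins took 0.0309% to 0.535% of the summed FPKM of a library, with a median of 0.0958%, and helicases 0.0611% to 0.189%, with a median of 0.102%.

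In the following, a gene is called higher or lower at a change of 2-fold or more with an adjusted p under 0.005 in edgeR's quasi-likelihood test, adjusted over all genes tested. Leaves hold many cell types, so less RNA per cell and fewer cells of a type cannot be told apart. The sources differ on whether replicates are biological or technical, and p-values measure only the spread between these samples.

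The question of the first 4 comparisons was how non-acclimated leaves responded to 12 h of chilling or freezing. Most of the genes that changed were higher in the cold, in both varieties, and more of them passed the test in HX58. In HX58_CB 109 of 204 tested genes were called higher (53.4%) and 4 lower (1.96%), where 14.2% of all genes tested were higher and 11.8% lower. In HX58_FB 106 of 205 were higher (51.7%) and 8 lower (3.9%), against 16.1% and 13.6% of all genes. In HX17_CB 42 of 198 were higher (21.2%) and 2 lower (1.01%), against 5.98% and 8.19%, and in HX17_FB 50 of 195 were higher (25.6%) and 5 lower (2.56%), against 12.8% and 13.3%. The median log2 change was 1.44 in HX58_CB, 1.36 in HX58_FB, 0.72 in HX17_CB and 0.61 in HX17_FB, while the medians over all genes tested were -0.018, 0.01, 0.014 and -0.042. The HX17 counts rested on its controls: without HX17_MB replicate 1 the number called was 10 in HX17_CB and 27 in HX17_FB, and without HX17_MB replicate 3 it was 12 and 33. Without HX17_CB replicate 2 it was 28. Of the genes called higher, 39 were shared by the varieties in CB, which is 92.9% of the HX17 list and 35.8% of the HX58 list. In FB 47 were shared, 94.0% and 44.3%. The shared share was not computed over all genes, so whether it is particular to these genes was not tested.

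Acclimated leaves were compared with the MA controls, and here fewer of the genes were called. In HX17_CA 6 of 185 were higher and 0 lower (0 lower also by DESeq2, and 8 lower at an unadjusted p under 0.05), against 0.608% and 0.449% of all genes, and in HX17_FA 7 of 184 were higher and 2 lower, against 5.26% and 2.63%. In HX58_CA 13 of 184 were higher and 4 lower, against 2.6% and 2.77%, and in HX58_FA 20 of 192 were higher and 4 lower, against 9.42% and 7.26%. Thus the share called higher was 3.24%, 3.8%, 7.07% and 10.4% in turn, which for HX17_FA lay below the share of all genes and for HX58_FA near it. The median log2 change was 0.51 in HX17_CA and 0.50 in HX58_CA, where all genes had -0.029 and -0.053, and -0.009 in HX17_FA and 0.26 in HX58_FA, where all genes had -0.014 and 0.037. Without HX17_MA replicate 1 the number called in HX17_CA was 1, and without HX17_MA replicate 3 it was 5 in HX17_FA. In HX58_CA it was 5 without CA replicate 1 or 3, 7 without CA replicate 2 and 8 without HX58_MA replicate 1, and in HX58_FA it was 12 without FA replicate 1 or 2 and 11 without FA replicate 3. Of the genes called higher, 5 were shared by the varieties in CA and 6 in FA, again without a value over all genes.

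**Figure D1:**
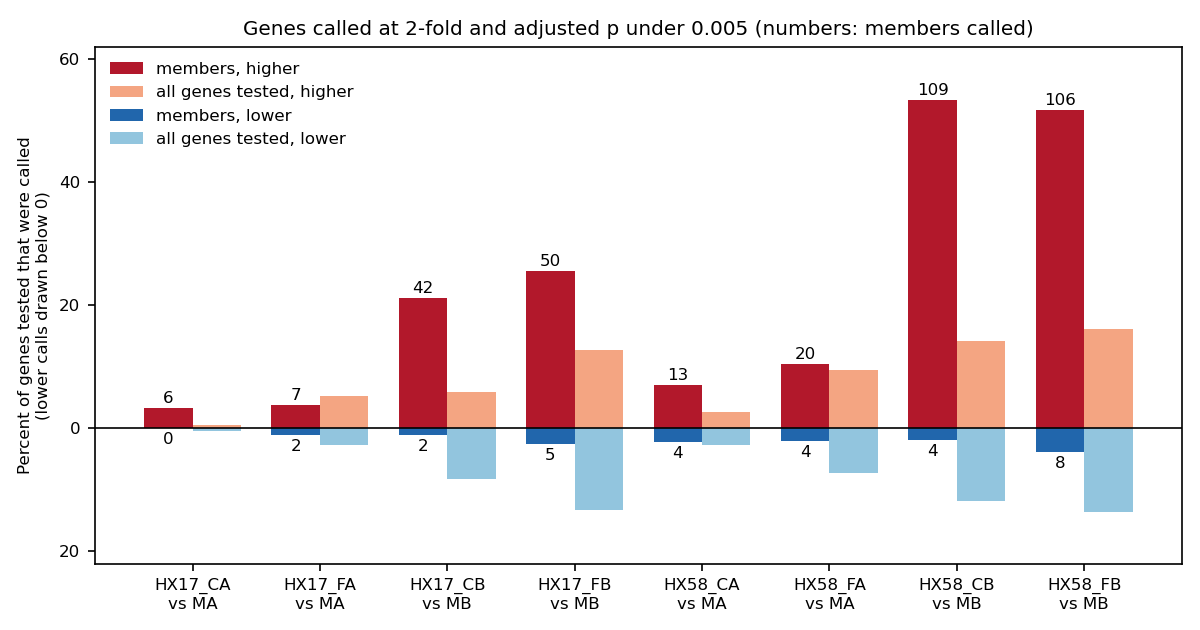
Share of the DEAD-box helicase and glycine-rich RNA-binding protein genes tested that was called higher or lower in each of the 8 comparisons of a cold treatment with its control. Bars are percent of genes tested, beside the share of all genes tested that was called, and the numbers at the bars are genes called. Genes called higher ranged from 6 in HX17_CA to 109 in HX58_CB, and at most 8 were called lower.

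Across the 8 comparisons 125 genes were called higher at least once, 11 were called lower at least once and 0 were called in both directions. Of the 125, 104 were higher in 2 comparisons or more, 40 in 4 or more, 10 in 6 or more and 4 in all 8, and 4 genes were lower in 4 or more. Within a variety CA and FA share the MA controls and CB and FB the MB controls, so these counts are not independent of each other. They were not made over all genes tested, so whether such recurrence is particular to these genes was not tested.

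**Figure D2:**
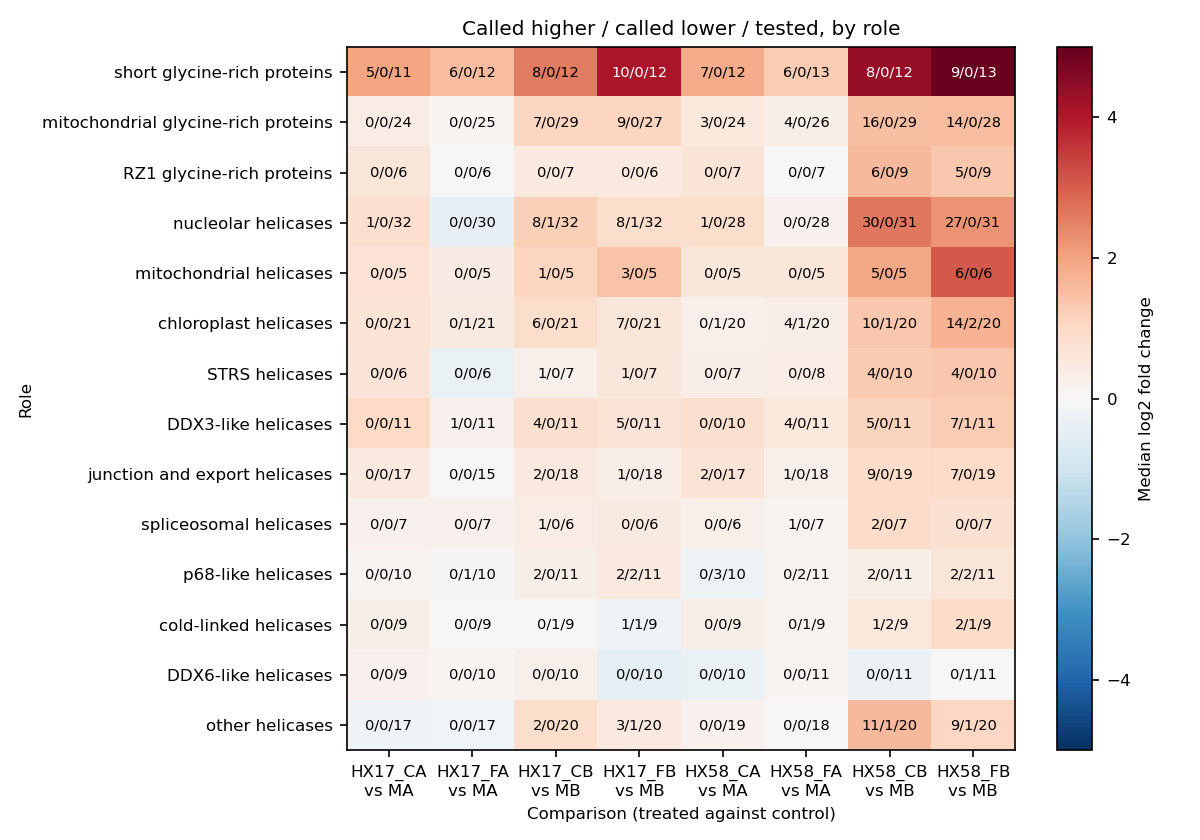
Genes called higher and lower in each functional group (rows) and comparison (columns), as numbers of genes out of those tested. In HX58_CB 30 of 31 nucleolar helicases were called higher, and 8 of 12 short glycine-rich proteins.

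The short glycine-rich proteins are small proteins with 1 RNA-recognition motif, related to GRP7 and GRP8 of Arabidopsis, which are under the control of the circadian clock, and 16 genes belong to them. All 4 genes called higher in the 8 comparisons alike are in this group. In chilled non-acclimated leaves 8 of 12 tested were higher in HX17 and 8 of 12 in HX58, with median log2 changes of 2.59 and 4.34. In frozen ones 10 of 12 were higher in HX17 and 9 of 13 in HX58, with medians of 4.06 and 4.96. In acclimated leaves 5 of 11 (CA) and 6 of 12 (FA) were higher in HX17 and 7 of 12 (CA) and 6 of 13 (FA) in HX58, and none was called lower in any of the 8 by edgeR's quasi-likelihood test or by DESeq2, with 1 lower at an unadjusted p under 0.05 over the 97 gene tests. In each freezing comparison with a control, the genes called higher include a carrot-matched gene, described below, that had 0 counts in the controls. It passed the filter on low counts only through the frozen libraries. The summed level of the 16 genes was 116, 108 and 148 FPKM in the HX17_MB libraries, 1618, 2109 and 1666 in HX17_CB and 2930, 3332 and 3622 in HX17_FB. In HX58 it was 114, 146 and 72.9 in MB, 2111, 3359 and 2916 in CB and 5836, 6004 and 4456 in FB. No treated library overlapped a control, and in each variety the lowest freezing library lay above the highest chilling library.

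The gene with the highest mean level was a copy of GRP1A, BnaAnng35580D, matched to a mustard protein and lying on an unplaced A scaffold at 40330682 to 40331438 on the minus strand, in the coordinates of the deposited table. Its level was 13.4, 12.8 and 34.9 FPKM in HX17_MB, 619, 699 and 609 in HX17_CB and 1309, 1582 and 1444 in HX17_FB. In HX58 it was 44.0, 54.1 and 22.2 in MB, 700, 1507 and 1187 in CB and 2413, 2483 and 1822 in FB. The 3 levels, control, chilling and freezing, did not overlap in either variety. Acclimated leaves had 258, 219 and 232 FPKM in HX17_CA and 414, 1012 and 533 in HX17_FA, above 4.17 to 13.8 in HX17_MA. HX58_CA had 121, 163 and 167 and HX58_FA 316, 385 and 345, above 6.67 to 8.20 in HX58_MA. The log2 change of BnaAnng35580D in edgeR's quasi-likelihood test was 4.78 ± 0.39 (SE, adjusted p = 0.000122) in HX17_CB and 6.23 ± 0.43 (adjusted p = 1.6e-05) in HX17_FB, compared with 4.88 ± 0.46 in HX58_CB and 5.81 ± 0.34 in HX58_FB. In acclimated leaves it was 4.69 ± 0.42 in HX17_CA, 6.25 ± 0.53 in HX17_FA, 4.36 ± 0.22 in HX58_CA and 5.50 ± 0.19 in HX58_FA, and the HX17_CA call was lost without HX17_CA replicate 2 or HX17_MA replicate 1.

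A GRP1A gene on a C scaffold, BnaC08g49360D, behaved alike at a lower level. In HX17 it rose from 5.45, 3.29 and 9.15 FPKM in MB to 616, 655 and 742 in FB, and in HX58 from 12.8, 16.9 and 7.59 in MB to 1745, 1755 and 1214 in FB. The treated and control libraries were far apart in both. The log2 change of BnaC08g49360D in FB was 6.89 ± 0.38 in HX17 and 6.98 ± 0.33 in HX58, or 118-fold and 126-fold. Reads of such near-identical A and C copies can be split between them or lost, so the level of a single copy is uncertain.

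Of the 3 GRP2A genes, also matched to mustard, 2 rose from a control level close to 0 and BnaC06g20120D was not called in any of the 8. BnaUnng05060D had 0.289, 0.936 and 0.213 FPKM in HX58_MB, 221, 231 and 258 in HX58_CB and 277, 300 and 282 in HX58_FB. Its log2 change was 8.90 ± 0.46 (adjusted p = 1.97e-05) in HX58_CB and 9.17 ± 0.44 (adjusted p = 9.8e-06) in HX58_FB in edgeR's quasi-likelihood test, or 479-fold and 576-fold. The gap between groups was far larger than the spread within them. BnaA04g12350D had 0.479, 0.495 and 0.117 FPKM in HX17_MB and 84.7, 85.5 and 123 in HX17_FB, a 270-fold rise, and rose 258-fold in HX58_FB. In HX17_CA it had 85.6, 53.1 and 55.0 FPKM against 0.133, 0.467 and 0.495 in HX17_MA, with a log2 change of 7.49 ± 0.46 (adjusted p = 0.000225). This was the HX17_CA change that held whichever library was left out.

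GRP10 was first described in rapeseed itself. The copy BnaC01g00280D had 26.3, 26.6 and 26.7 FPKM in HX17_MB, 373, 567 and 433 in HX17_CB and 385, 440 and 514 in HX17_FB. In HX58 it had 19.4, 26.2 and 22 in MB, 458, 479 and 463 in CB and 550, 514 and 452 in FB. Its rise was 14.7-fold in HX17_CB and 20.4-fold in HX58_CB, with chilling and freezing libraries at overlapping levels. In acclimated leaves the chilled plants had more of it than the frozen ones: 363, 222 and 311 FPKM in HX17_CA against 73.2, 152 and 89.9 in HX17_FA, and 117, 149 and 185 in HX58_CA against 63.2, 81.7 and 65.0 in HX58_FA. The 9.63-fold rise in HX17_CA was lost without HX17_MA replicate 1 or 3.

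**Figure D3:**
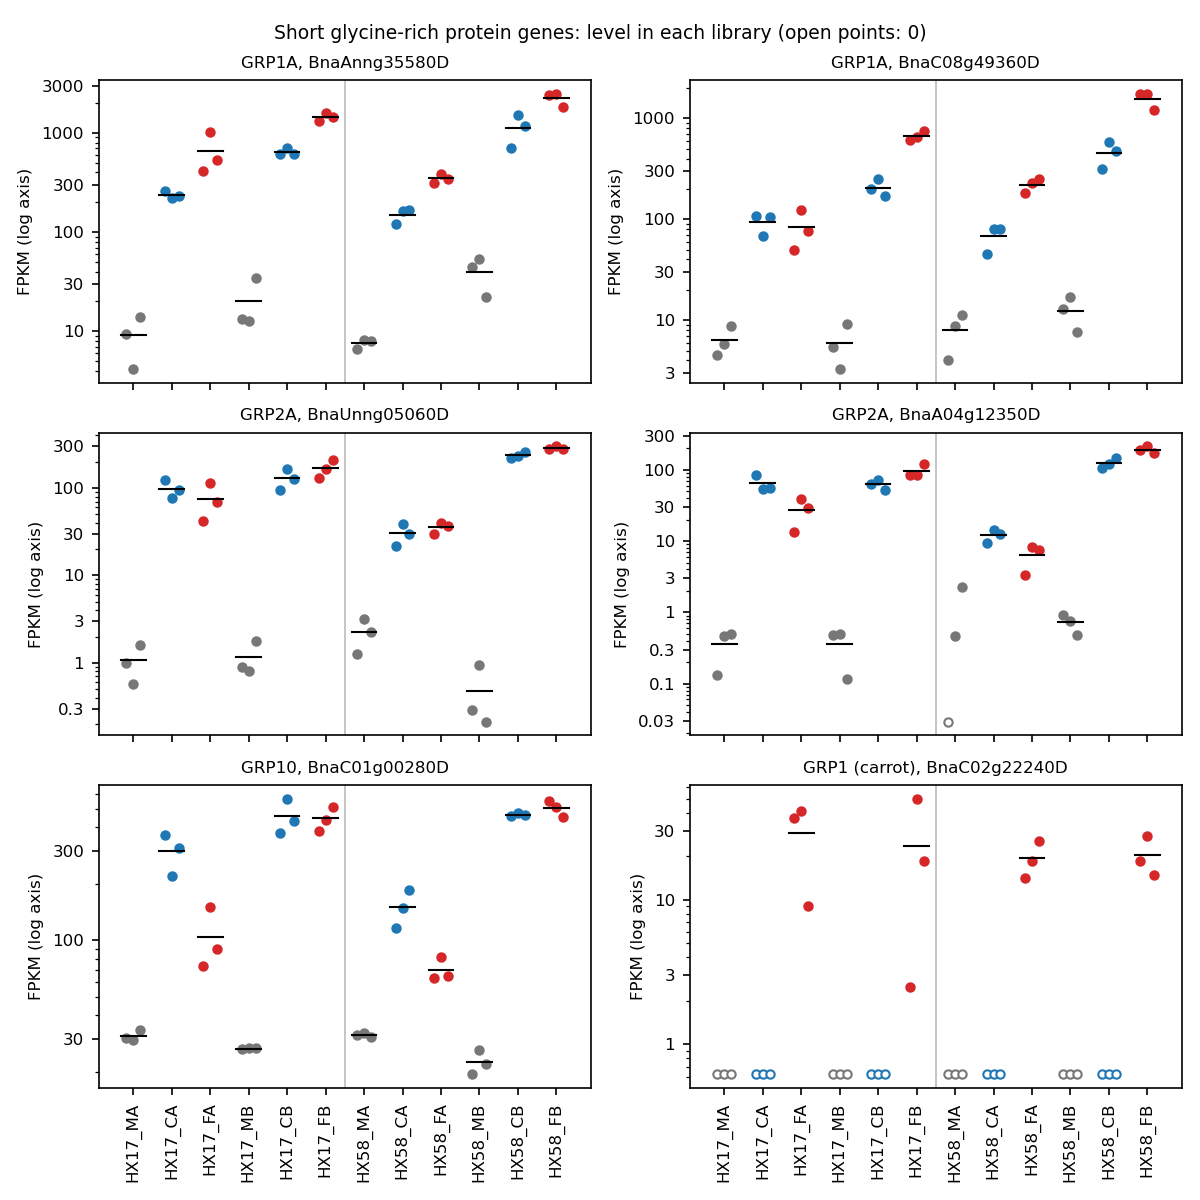
Level in FPKM (log axis) of short glycine-rich protein genes in each library (points), with the group mean (line), for controls (grey), 4° (blue) and -4° (red), and open points for a level of 0. The GRP1A gene BnaAnng35580D had 22.2 to 54.1 FPKM in HX58_MB and 1822 to 2483 in HX58_FB.

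A gene matched to a carrot glycine-rich protein, BnaC02g22240D, was detected only in frozen leaves. It lies on chromosome C02 at 19099098 to 19099625 and is 291 nt long. It had 0 counts in every MA, CA, MB and CB library of both varieties. In frozen leaves it had 36.9, 40.8 and 9.08 FPKM in HX17_FA, 2.49, 49.7 and 18.6 in HX17_FB, 14.2, 18.6 and 25.3 in HX58_FA and 18.6, 27.7 and 14.8 in HX58_FB. Each of the 12 libraries at -4° thus held its RNA. Against a floor of 3 counts over the control group BnaC02g22240D was at least 329-fold higher in HX17_FA, 233-fold in HX17_FB, 240-fold in HX58_FA and 237-fold in HX58_FB. Its adjusted p in edgeR's quasi-likelihood test was 0.000333, 0.0023, 3.38e-05 and 4.92e-05, and the HX17_FB call was lost without FB replicate 3 or any 1 of the 3 HX17_MB libraries.

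The 1 gene matched to GRP7 and the 1 matched to GRP8 were not called in any of the 8 comparisons. Which rapeseed genes correspond to GRP7 and GRP8 of Arabidopsis was not tested. The match alone does not set the mustard-matched genes apart from them. BnaA02g08930D (GRP7) had a mean of 0.363 FPKM and BnaC02g09260D (GRP8) of 3.27 FPKM. These are low levels beside the mustard-matched copies, and the assignment of reads to a copy of this family was not tested.

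The mitochondrial glycine-rich proteins, 33 genes matched to RBG2 to RBG6 of Arabidopsis, carry a targeting signal for mitochondria. In non-acclimated HX58 16 of 29 were called higher on chilling and 14 of 28 on freezing, with median log2 changes of 1.52 and 1.53. In non-acclimated HX17 these were 7 of 29 and 9 of 27, with medians of 1.07 and 1.08. In acclimated leaves 3 of 24 and 4 of 26 were higher in HX58_CA and HX58_FA, where 2.6% and 9.42% of all genes were. None of 24 and 25 was called in HX17_CA and HX17_FA by edgeR's quasi-likelihood test, where 5 and 2 were higher at an unadjusted p under 0.05 and DESeq2 called 3 and 0. Their summed level was 318, 410 and 325 FPKM in HX17_MB and 1059, 946 and 822 in HX17_CB. It was 351, 391 and 260 in HX58_MB and 869, 1179 and 1045 in HX58_CB, so that the groups did not overlap in either variety.

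RBG2, an Arabidopsis RNA chaperone linked to cold and seed germination, had 9 copies. BnaC06g11760D had 2.39, 4.37 and 1.54 FPKM in HX58_MB and 75.4, 155 and 111 in HX58_CB, a log2 change of 5.41 ± 0.46 or 42.5-fold. In HX17 its level was 1.91, 7.97 and 1.07 in MB and 61.5, 58.9 and 32.3 in CB. BnaA05g13070D had 2.21, 3.68 and 1.43 FPKM in HX58_MB and 49.4, 117 and 69.6 in HX58_CB or 33.6-fold more. The copy with the most RNA differed less between the groups: BnaAnng08850D had 80.0, 101 and 48.1 FPKM in HX58_MB and 187, 220 and 213 in HX58_CB. Its call there was lost without HX58_CB replicate 3 or HX58_MB replicate 1 or 3. Of the 9 RBG2 copies 5 were called higher in 4 to 6 of the 8 comparisons, and 4 copies with at most 3.58 FPKM in a control library and 3.62 in a treated one were called in none.

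The RZ1 proteins join an RNA-recognition motif and a zinc finger to the glycine-rich tail. RZ1A of Arabidopsis is an RNA chaperone studied in cold, and RZ1B and RZ1C act in splicing. Of 15 genes 6 of 9 tested were higher in HX58_CB and 5 of 9 in HX58_FB, with median log2 changes of 1.61 and 1.36. None was called in the other 6 comparisons by edgeR's quasi-likelihood test, where over 39 gene tests 12 were higher and 3 lower at an unadjusted p under 0.05 and DESeq2 called 1. The RZ1C gene BnaA03g01190D rose 2.36-fold in HX58_CB, a call that was lost without HX58_MB replicate 1 or 2.

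Nucleolar helicases, which act in ribosome assembly, rose together in non-acclimated HX58. They are 48 genes, 8 of them with no count, and include RH10, RH16, RH17, RH18, RH27, RH28, RH29, RH32, RH36, RH51 and RH57. In HX58_CB 30 of 31 tested were called higher and 0 lower, and in HX58_FB 27 of 31, with median log2 changes of 2.62 and 2.23. The 1 tested gene not called in HX58_CB was a copy of RH13, BnaC01g44040D. In HX17 8 of 32 were higher and 1 lower in CB and likewise in FB, with medians of 1.19 and 0.87. Copies matched to the same helicase were called together: of the copies tested, all 6 of RH51, 4 of RH10, 4 of RH16, 3 of RH18 and 2 each of RH17, RH27, RH28, RH29 and RH36 were higher in HX58_CB. Not tested there were 1 copy of RH10, 5 of RH16, 2 of RH18, 2 of RH28, 1 of RH29 and 3 of RH36.

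The summed level of the nucleolar helicases was 60.4, 62.7 and 40.3 FPKM in HX58_MB, 311, 316 and 331 in HX58_CB and 265, 226 and 264 in HX58_FB. It was 100, 105 and 101 in HX17_MB, 209, 202 and 168 in HX17_CB and 168, 120 and 144 in HX17_FB. HX58 thus started lower than HX17 and ended higher, with no overlap between the varieties in MB, CB or FB. The HX17 sums include the RH57 copy BnaA01g20830D, which had 5.05 to 31.2 FPKM in HX17 libraries and 0 counts in HX58. This copy was called lower in HX17_CB and HX17_FB, so it adds more to the HX17_MB sums than to those of CB and FB. Of the nucleolar genes tested in both varieties, 29 of 30 had the larger rise in HX58 in CB and 30 of 30 in FB. Over the genes of all groups the log2 change was larger in HX58 in 138 of 193 in CB and 150 of 189 in FB. In FB the other groups ran from 3 of 6 spliceosomal helicases to 7 of 7 STRS helicases. In acclimated leaves 1 of 32 (HX17) and 1 of 28 (HX58) were higher on chilling, and 0 of 30 and 0 of 28 on freezing by edgeR's quasi-likelihood test. Of all genes 0.608% and 2.6% were higher on chilling, and 5.26% and 9.42% on freezing. On chilling 14 and 12 were higher and 0 lower at an unadjusted p under 0.05, and DESeq2 called 5 and 4 higher. The median log2 changes there were 0.83 (HX17) and 0.88 (HX58). On freezing 0 and 4 were higher and 1 and 2 lower at an unadjusted p under 0.05, and DESeq2 called 0 and 1 higher and 1 lower in each. The medians on freezing were -0.41 and 0.22.

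RH51 is close to yeast Has1, which takes part in the maturation of ribosomal RNA. The copy BnaC03g40570D had 3.87, 3.87 and 1.65 FPKM in HX58_MB, 30.7, 25.6 and 32.7 in HX58_CB and 24.9, 19.2 and 27.3 in HX58_FB. In HX17 it had 4.44, 7.11 and 4.93 in MB, 20.3, 23.2 and 17.3 in CB and 21.8, 11 and 16.2 in FB. Its rise was 9.49-fold and 7.7-fold in HX58 and 3.15-fold and 3.09-fold in HX17. The HX17_CB call was lost without HX17_MB replicate 1 or 3, the HX17_FB call also without FB replicate 1 or 3, and the 3.41-fold rise of BnaC03g40570D in HX17_CA whichever library was left out.

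The mitochondrial helicases, 9 genes matched to RH9, RH47 and RH53, include the Arabidopsis proteins PMH1 and PMH2, which help introns to be spliced in mitochondria. All 5 tested were higher in HX58_CB and all 6 in HX58_FB, with median log2 changes of 1.95 and 3.06, and 1 of 5 and 3 of 5 in HX17_CB and HX17_FB. Of the 6, 1 had no count in HX58_MB and passed the filter on low counts only through the frozen libraries. Its call was thus largely set by that filter, and it counts in the median of 3.06. The RH47 gene BnaA08g24620D had 7.39, 6.89 and 7.39 FPKM in HX58_MB and 23.5, 35.4 and 24.7 in HX58_CB, 3.86-fold more. It rose 3.27-fold in HX58_FB and 2.67-fold in HX17_FB, where the call was lost without HX17_MB replicate 1 or 3, and in HX58_CB without HX58_MB replicate 1. In acclimated leaves none of the mitochondrial helicases was called by edgeR's quasi-likelihood test, where 9 of 20 gene tests were higher at an unadjusted p under 0.05 and DESeq2 called 3.

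The chloroplast helicases process RNA and build ribosomes in chloroplasts, and 23 genes matched RH3, RH22, RH26, RH39, RH50 or RH58. Of those tested 10 of 20 were higher and 1 lower in HX58_CB, and 14 of 20 were higher and 2 lower in HX58_FB, with median log2 changes of 1.37 and 1.73. HX17 had 6 of 21 higher in CB and 7 of 21 in FB. In acclimated leaves 4 of 20 were higher in HX58_FA, where 9.42% of all genes were, with 1 lower in each of HX17_FA, HX58_CA and HX58_FA. The RH3 gene BnaA06g39420D rose 2.02-fold in HX58_FB, just over the threshold, and that call was lost without FB replicate 1 or 3 or HX58_MB replicate 1 or 2.

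RH5 and RH25 are the STRS helicases, which hold back stress genes in Arabidopsis. Of 11 genes 1 of 7 tested was higher in HX17_CB and in HX17_FB, and 4 of 10 in HX58_CB and in HX58_FB. The 11 include BnaA08g00550D and BnaC03g70440D, matched to RH5 of rice and not of Arabidopsis, and these make up 2 of the 4 in each. The shares of all genes called higher were 5.98% (HX17) and 14.2% (HX58) on chilling, and 12.8% and 16.1% on freezing. The 1 of 7 in frozen non-acclimated HX17 was thus near the share of all genes. No STRS helicase was called in acclimated leaves by edgeR's quasi-likelihood test. Over 27 gene tests there, 9 were higher and 1 lower at an unadjusted p under 0.05. DESeq2 called 2 higher and 1 lower. The gene BnaA10g22840D (RH25) had 6.31, 9.37 and 5.30 FPKM in HX17_MB, 31.8, 34.1 and 23.4 in HX17_CB and 44.2, 31.4 and 36.0 in HX17_FB. In HX58 it had 6.50, 5.58 and 4.00 in MB, 44.4, 45.2 and 42.5 in CB and 51.8, 36.3 and 48.8 in FB. Its rise was 3.62-fold and 5.5-fold in HX17 and 8.22-fold and 8.49-fold in HX58, and the HX17_CB call was lost without HX17_MB replicate 1 or 3. The RH5 gene BnaCnng50040D was not called in any of the 8, while the RH5 copy BnaA09g53730D was called higher in 1.

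Helicases of exon junction complexes and mRNA export comprise RH2 and RH34, which are of the eIF4A-III kind, and RH56, which is of the UAP56 kind. Of 22 genes 9 of 19 tested were higher in HX58_CB and 7 of 19 in HX58_FB, against 2 of 18 and 1 of 18 in the same treatments of HX17. Of all genes 14.2% were higher in HX58_CB, 16.1% in HX58_FB, 5.98% in HX17_CB and 12.8% in HX17_FB. In HX17_FB the share of this group thus lay below that of all genes. The RH56 gene BnaA02g00880D had 11.2, 13.7 and 14.2 FPKM in HX17_MB and 63.9, 111 and 90.5 in HX17_CB. In HX58 it had 9.15, 12.2 and 8.0 in MB and 65.8, 53.3 and 70.0 in CB. Its log2 change in edgeR's quasi-likelihood test was 2.54 ± 0.23 (adjusted p = 0.000185) in HX17_CB and 2.59 ± 0.22 in HX17_FB, compared with 2.66 ± 0.21 in HX58_CB and 2.84 ± 0.18 in HX58_FB. BnaA02g00880D was called in these 4 comparisons whichever library was left out.

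RH7, RH38 and RH42 are among the helicases with a known cold phenotype in Arabidopsis, and act in ribosomal RNA maturation, mRNA export and splicing. Of their 14 genes 9 were tested. In HX58_CB 1 was higher and 2 lower and in HX58_FB 2 were higher and 1 lower, where 26% and 29.7% of all genes were called in either direction, a share near that of these genes. In HX17_CB 1 was lower, in HX17_FB 1 was higher and 1 lower, and in HX58_FA 1 was lower. The RH38 gene BnaC06g14380D, known as LOS4 in Arabidopsis, rose 2.14-fold in HX17_FB and 2.05-fold in HX58_FB. These calls were lost without HX17_MB replicate 1 or 3, and without HX58_FB replicate 1 or HX58_MB replicate 2, and both were lost with the MA controls in place of MB. The RH42 gene BnaC05g16220D and the RH7 gene BnaA09g05930D, the most abundant copies, were not called in any of the 8. Another RH42 copy, BnaCnng78150D, was called lower in 1 of the 8, and the RH7 copy BnaC09g05510D higher in 1.

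DDX3-like helicases (RH11, RH37 and RH52) take part in the start of translation. Of 11 tested 5 were higher in HX58_CB and 7 higher and 1 lower in HX58_FB, against 4 and 5 higher in HX17. In frozen acclimated leaves 4 of 11 were higher in HX58_FA, where 9.42% of all genes were, and 1 of 11 in HX17_FA, where 5.26% were. The RH52 copy BnaA07g17920D was called higher in 6 of the 8 comparisons, and had 1.90, 2.19 and 1.53 FPKM in HX58_MB and 9.84, 10.7 and 8.80 in HX58_FB. Its HX17_CB call was lost without HX17_MB replicate 1, its HX17_FA call in 5 of 6 fits and its HX58_FA call without any 1 FA library or HX58_MA replicate 3.

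Of the spliceosomal helicases (RH21, RH35 and RH45) 1 of 6 was higher in HX17_CB, and 2 of 7 in HX58_CB, where 5.98% and 14.2% of all genes were. On freezing 0 of 6 in HX17_FB and 0 of 7 in HX58_FB were called, where 12.8% and 16.1% of all genes were higher. In these 3 and 3 were higher at an unadjusted p under 0.05, and DESeq2 called 0. In HX58_FA 1 of 7 was higher, where 9.42% of all genes were. Of the DDX6-like helicases (RH6, RH8 and RH12), which belong to cytoplasmic granules that store and decay mRNA, none was called higher in any of the 8 by edgeR's quasi-likelihood test and 1 was lower in HX58_FB. Over 82 gene tests 9 were higher and 12 lower at an unadjusted p under 0.05, and DESeq2 called 1 higher and 3 lower. Of 20 helicases outside these groups 11 were higher and 1 lower in HX58_CB and 9 higher and 1 lower in HX58_FB, against 2 and 3 higher in HX17, with a median log2 change of 1.62 in HX58_CB. Of all genes 14.2% and 16.1% were higher in HX58_CB and HX58_FB, and 5.98% and 12.8% in HX17_CB and HX17_FB.

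The genes called lower were few. A copy of RH7, BnaC06g08660D, lies on chromosome C06 at 10145239 to 10146184 and is 462 nt long, against 1908 nt for BnaA09g05930D. It had 51.9, 50.4 and 35.6 FPKM in HX58_MB, 5.88, 3.77 and 5.01 in HX58_CB and 1.70, 1.77 and 2.15 in HX58_FB. In HX17 it had 19.6, 12.0 and 21.6 in MB, 4.43, 4.55 and 6.77 in CB and 1.13, 2.24 and 1.42 in FB. The order control, chilling, freezing held without overlap in both varieties. Its log2 change in edgeR's quasi-likelihood test was -1.96 ± 0.29 in HX17_CB and -3.42 ± 0.35 in HX17_FB, compared with -3.27 ± 0.21 in HX58_CB and -4.62 ± 0.22 in HX58_FB. The HX17_CB call was lost without CB replicate 1 or 2 or HX17_MB replicate 1 or 3. The gene also fell by 1.25 on the log2 scale in HX58_FA, a call lost without any 1 FA library. The longer copy BnaA09g05930D had 18.3, 19.7 and 13.4 FPKM in HX58_MB and 32.6, 33.4 and 31.8 in HX58_FB.

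RH14, a p68-like helicase, had the most abundant RNA among those that fell. BnaC03g32450D had 265, 236 and 249 FPKM in HX58_MB and 96.5, 97.8 and 96.3 in HX58_FB, and 187, 312 and 245 in HX58_MA and 76.0, 78.7 and 82.7 in HX58_CA. The groups did not overlap in either pair. Its log2 change was -1.58 in HX58_CA, -1.49 in HX58_FA, -1.41 in HX58_FB, -1.25 in HX17_FA and -1.10 in HX17_FB. The A copy BnaA03g27430D fell by 1.90 on the log2 scale in HX58_CA, a call lost without CA replicate 1, and BnaCnng05570D by 1.34, a call lost without any 1 CA library or HX58_MA replicate 3. Calls of RH14 in HX17 were lost in at least 4 of 6 leave-one-out fits and that of BnaC03g32450D in HX58_CA without any 1 of the 3 CA libraries, so that its calls in HX58_FA and HX58_FB were the ones that held throughout. The p68-like genes (RH14, RH20, RH30, RH40 and RH46) number 14, of which 2 of 11 tested were higher in CB and in FB of either variety, and 2 lower in FB of either. Of all genes 5.98% (HX17_CB) to 16.1% (HX58_FB) were higher in these comparisons, and 13.3% and 13.6% were lower in HX17_FB and HX58_FB.

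RH50, a chloroplast helicase, had 3 copies, of which 1 fell and the other two rose. The 579 nt copy BnaC06g36140D had 44.6, 39 and 30.4 FPKM in HX58_MB and 7.56, 8.37 and 5.58 in HX58_FB, with a log2 change of -2.43. It was also lower in HX58_FA and HX58_CB, and in HX58_CA and HX17_FA with calls that were lost without any 1 of the 3 CA libraries and in 5 of 6 fits. The 1914 nt copy BnaA05g30550D had 3.80, 5.60 and 5.22 FPKM in HX58_MB and 24.8, 21.3 and 20.6 in HX58_FB. In HX17 the level of BnaA05g30550D was 3.00, 3.58 and 2.52 in MB and 2.37, 2.75 and 2.43 in FB. The copy with the highest mean level over the 36 libraries, BnaC05g45010D, had 12.2, 13.2 and 12.8 FPKM in HX58_MB and 65.7, 58.7 and 63.4 in HX58_FB, without overlap. It was called higher in CB and FB of both varieties, in HX17 with calls that were lost without HX17_MB replicate 1 or 3.

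An RH57 copy of 240 nt, BnaA01g20830D, fell by 1.28 on the log2 scale in HX17_CB and by 2.25 in HX17_FB, from 30.8, 22.3 and 31.2 FPKM in MB to 5.27, 6.65 and 5.05 in FB. The HX17_CB call was lost whichever library was left out, and the gene had 0 counts in all 18 HX58 libraries. RH33 BnaC03g20930D, of 750 nt, fell by 1.18 in HX17_FB and by 1.46 and 1.25 in HX58_CB and HX58_FB, with an HX17_FB call lost in 5 of 6 fits. The 11 genes called lower had a median length of 750 nt, from 240 to 2067 nt, and the 125 called higher 1497 nt, where the 215 tested had 1485 nt. Whether short gene models bear on these falls was not tested.

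**Figure D4:**
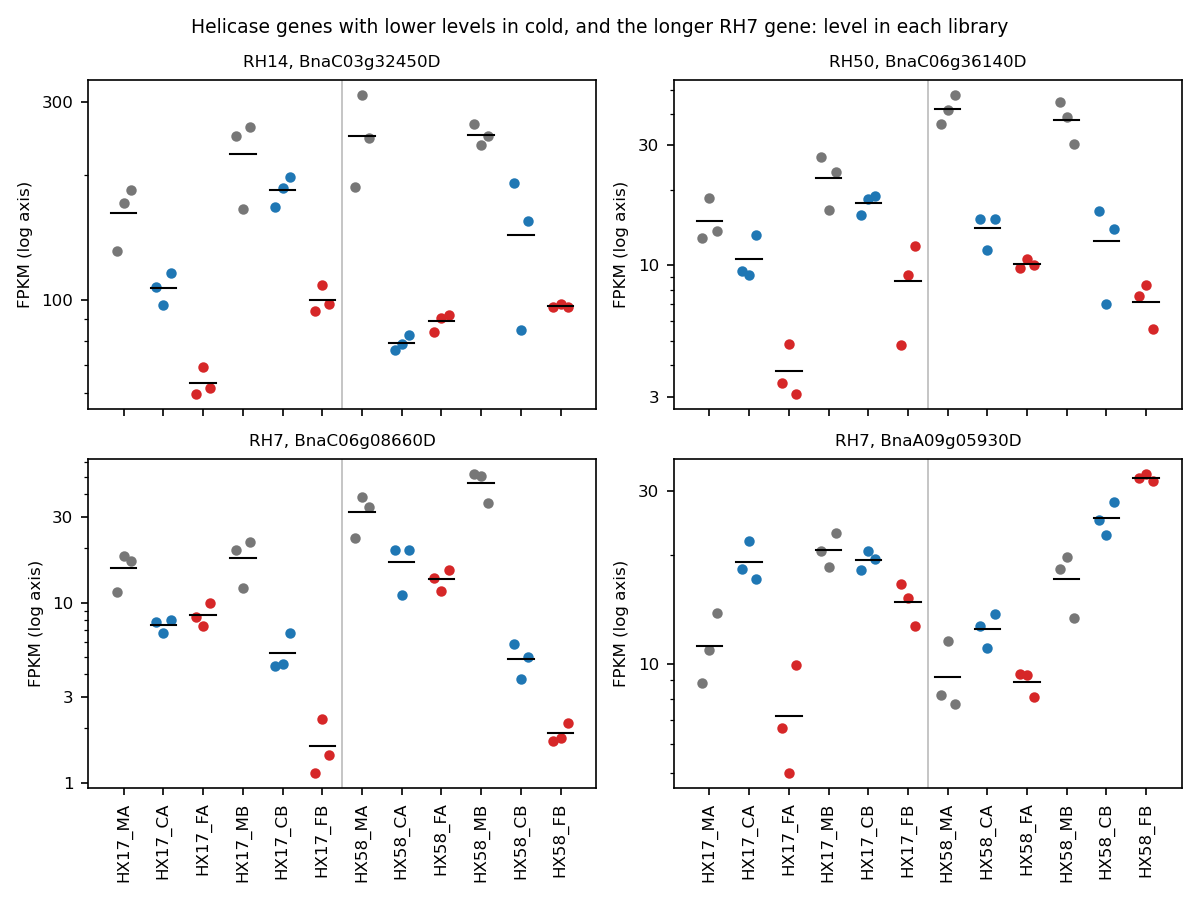
Level in FPKM (log axis) of helicase genes called lower in the cold, in each library (points) with the group mean (line). Controls are grey, 4° blue and -4° red, and open points mark 0. Also drawn is the longer RH7 copy BnaA09g05930D, which was not called in any comparison of a cold treatment with its control. The RH7 copy BnaC06g08660D had 35.6 to 51.9 FPKM in HX58_MB and 1.70 to 2.15 in HX58_FB.

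Freezing was also compared directly with chilling. In HX17 1 of 183 tested genes was called between FA and CA, against 4.22% of all genes, and 2 of 200 between FB and CB, against 2.85%. The former was the carrot-matched gene BnaC02g22240D, at least 311-fold higher in FA, a call lost without FA replicate 1. The latter were the GRP1A genes, with log2 changes of 1.47 ± 0.18 (adjusted p = 0.00131) for BnaAnng35580D and 2.00 ± 0.20 (adjusted p = 0.000525) for BnaC08g49360D in edgeR's quasi-likelihood test. In HX17 the number called between FA and CA was 0 without FA replicate 1, 2 without FA replicate 2 and 3 without FA replicate 3, and between FB and CB it was 1 without any of the 3 CB libraries or FB replicate 3, when the BnaAnng35580D call was lost.

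In HX58 6 of 191 genes were higher and 5 lower in FA than in CA, against 8.4% and 7.56% of all genes, and 2 of 207 were called between FB and CB, against 2.92%. RH35, a spliceosomal helicase, had 8.40, 6.61 and 5.64 FPKM in HX58_CA and 32.9, 22.8 and 32.5 in HX58_FA at BnaC09g00180D, a log2 change of 1.98 ± 0.21. The groups were apart, and HX58_MA had 11.9, 13.3 and 10.9. RH11 BnaA09g37460D fell by 1.47 and held in every leave-one-out fit, while RH10 BnaC07g30960D fell by 1.86 and was called in none of them, and GRP10 BnaC03g60490D fell by 1.29 and was lost in 5 of 6. The number called between FA and CA was 7 without CA replicate 1 or 2 or FA replicate 1 or 2, and 6 without FA replicate 3. The carrot-matched gene and RH3 BnaC07g28800D were those called between FB and CB, the latter with a log2 change of 1.63 that was lost in 5 of 6 fits. That number was 1 without CB replicate 1 or 3 or FB replicate 1 or 2.

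The controls were set against each other as well. Between MB and MA 0 of 184 genes were called in HX17 and 0 of 193 in HX58 by edgeR's quasi-likelihood test, against 1.1% and 0.015% of all genes. At an unadjusted p under 0.05 there were 22 and 49, and DESeq2 called 0 and 3. Without HX58_MB replicate 3 the HX58 number was 1. The summed level of the nucleolar helicases was nonetheless 63.3, 58.6 and 69.3 FPKM in HX17_MA and 100, 105 and 101 in HX17_MB, without overlap.

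Whether the varieties responded differently was tested as the interaction of variety and treatment. In CB 1 of 211 genes was called, against 1.92% of all genes, and in FB 4 of 211, against 1.6%. In CA 0 of 198 and in FA 0 of 203 were called by edgeR's quasi-likelihood test, against 0.169% and 0.23%, with 27 and 31 at an unadjusted p under 0.05 and 3 and 4 by DESeq2. DESeq2 called 24 in CB and 19 in FB, and at an adjusted p under 0.05 with no limit on fold there were 47 and 24. The larger number of genes called in HX58 is thus not, gene by gene, shown to be a different response. For the nucleolar helicases the median difference of log2 change, HX58 minus HX17, was 1.41 in CB, positive in 32 of 33, and 1.22 in FB, positive in 33 of 33, with 1 called in each. Over all 211 genes the median difference was 0.59 in CB and 0.49 in FB. It was positive in 117 of 159 helicases and 33 of 52 glycine-rich proteins in CB, and in 121 of 158 and 32 of 53 in FB.

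The 1 gene called in CB was RH36 BnaA09g56360D, of the nucleolar group. It had 3.71, 5.04 and 3.21 FPKM in HX17_MB, 7.78, 5.47 and 5.87 in HX17_CB, 0.918, 1.07 and 0.884 in HX58_MB and 5.28, 8.53 and 5.83 in HX58_CB. The chilled levels of the varieties overlapped and the control levels did not. That call was lost in 11 of 12 leave-one-out fits, which left 0 genes called in CB without any 1 of 10 of the 12 libraries. In FB the called genes were RH50 BnaA05g30550D, RH58 BnaC02g08610D, RH16 BnaC01g03560D and RH7 BnaC09g05510D, of which the RH50 copy was called in 12 of 12 fits, and leaving out 1 library gave 1 to 4 genes.

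**Figure D5:**
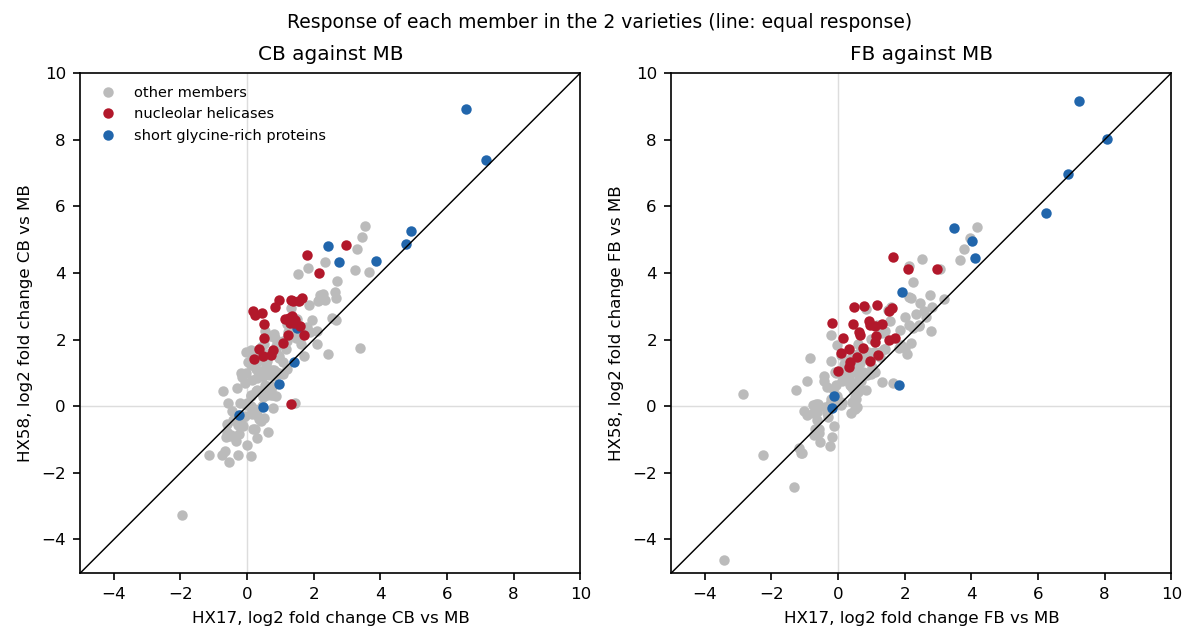
Log2 change of each gene tested in both varieties, HX17 (x axis) against HX58 (y axis), in CB and in FB. Nucleolar helicases are red, short glycine-rich proteins blue and all other genes grey. The carrot-matched gene is not drawn because its control groups are at 0. In CB 29 of 30 nucleolar helicases had the larger rise in HX58, against 138 of 193 genes of all groups.

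Acclimation was tested as the interaction of prior cold with freezing against chilling. In HX17 0 of 201 genes were called by edgeR's quasi-likelihood test, against 0.183% of all genes, with 64 at an unadjusted p under 0.05 and 11 by DESeq2, and the number was 1 without FA replicate 2. In HX58 1 of 210 was higher and 4 lower, against 2.92% and 3.4%, where DESeq2 called 25. The 5 were RH35 BnaC09g00180D, RH3 BnaC07g28800D, RH2 BnaA01g25900D and the GRP10 copies BnaA01g05410D and BnaC03g60490D. RH35 BnaC09g00180D rose from CA to FA, but had 30.9, 37.8 and 26.1 FPKM in HX58_CB and 15, 14.2 and 21.9 in HX58_FB, and was called in 12 of 12 leave-one-out fits. The HX58 number was 12 without CB replicate 2, 1 without FA replicate 3, 2 without FA replicate 1 or FB replicate 2, and 3 without CB replicate 1 or 3.

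Some genes were absent from the RNA of 1 variety. With at least 100 counts in the other variety, 5 genes had 0 counts in all 18 libraries of 1: RH57 BnaA01g20830D, RH52 BnaA02g17920D and RBG3 BnaC03g11540D in HX58, and RZ1B BnaC01g28720D and RBG5 BnaC02g02060D in HX17. RBG5 BnaC02g02060D had 10931 counts in HX58 and 16.3 to 55.1 FPKM in its libraries. Whether the gene is missing from the other variety or differs there in sequence cannot be told apart from these counts.

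Other RNA-binding and helicase families served as a comparison. In HX58_CB 5 of 18 eIF4A genes, which open mRNA for translation, were higher and 1 lower, 7 of 15 chloroplast ribonucleoproteins were higher and 0 lower, and 3 of 15 cold shock domain proteins were higher and 1 lower. Of all genes 14.2% were higher there. In HX58_FB 9 eIF4A genes were higher and 1 lower, 6 chloroplast ribonucleoproteins were higher, and 5 cold shock domain proteins were higher and 2 lower, where 16.1% of all genes were higher. In HX17_FB 1 of 18, 3 of 15 and 2 of 13 were higher, with 1 eIF4A gene lower, where 12.8% of all genes were higher. Within the 272 genes, both subgenomes took part in HX58_CB: 56 of 98 A copies were higher and 0 lower, and 52 of 105 C copies were higher and 4 lower, with median log2 changes of 1.61 and 1.08.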

How the data were processed

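Reads of 36 leaf libraries were aligned and counted by the authors with HISAT2 2.0.4 and HTSeq 0.9.1, as their processing notes give. Neither the version of the genome nor the strand setting of counting is stated there. The authors deposited raw counts per gene for each library, and FPKM, which were used for levels only. The 36 columns of group means, and the authors' own fold changes and p-values for 12 comparisons, were not used. Groups follow the variety and condition in the labels.

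Each comparison was tested on its own libraries with edgeR 4.0.16 in R 4.3.3 (TMM, filterByExpr set to min.count 10 and min.total.count 15, glmQLFit, glmQLFTest), with Benjamini-Hochberg adjustment over all genes tested. A gene was called at 2-fold or more and an adjusted p under 0.005. Errors are SE, the log2 change divided by the square root of F. Interactions used 12 libraries. The alternatives tried were RLE normalization, DESeq2 1.42.0, keeping genes of low count, an adjusted p under 0.05 without a limit on fold, other controls, a replicate block and leaving out each library. The genes named were, per treatment comparison, the 5 called with the largest rise and the 5 with the largest fall, per interaction and freezing comparison the 3 of each, at a mean CPM of 1 or more, and the most abundant copy of each group and of RH5, RH7, RH25, RH38, RH42, GRP7 and GRP8; other genes in the text were named after their values were seen. The members and lists were chosen with earlier results of these data known. The code was tested on simulated data.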

Additional observations from a re-analysis of the deposited data

Results flagged for a closer look

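For 10 genes the test of the difference itself, an interaction term in edgeR's quasi-likelihood test, passed the threshold. Between the varieties in CB, the log2 change of RH36 BnaA09g56360D was larger in HX58 by 2.34. In FB it was larger in HX58 by 2.27 for RH50 BnaA05g30550D, by 2.19 for RH58 BnaC02g08610D, by 1.80 for RH16 BnaC01g03560D and by 1.47 for RH7 BnaC09g05510D. Left-out libraries ended the RH36 and RH7 calls in 11 of 12 fits, the RH16 call in 8 of 12, the RH58 call in 3 of 12 and the RH50 call in none.

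Within HX58, the step from chilling to freezing was not alike in acclimated leaves and in those without acclimation. The difference, acclimated minus non-acclimated, was 2.86 for RH35 BnaC09g00180D, -1.65 for GRP10 BnaA01g05410D, -2.18 for RH2 BnaA01g25900D, -1.94 for GRP10 BnaC03g60490D and -1.41 for RH3 BnaC07g28800D. The RH3 call was lost in 11 of 12 fits, that of BnaC03g60490D in 5, RH2 in 3, BnaA01g05410D in 1 and RH35 in none. GRP10 BnaA01g05410D had 26.3, 33.6 and 32.4 FPKM in HX58_CA, 23.8, 24.0 and 21.2 in HX58_FA, 64.3, 56.9 and 72.7 in HX58_CB and 177, 143 and 96.0 in HX58_FB. RH3 BnaC07g28800D had 12.4, 12.0 and 10.5 FPKM in HX58_CA, 11.5, 17.4 and 14.3 in HX58_FA, 14.2, 11.1 and 15.3 in HX58_CB and 51.6, 41.8 and 27.8 in HX58_FB.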

How the results depend on the processing

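Of the 113 named changes none changed direction under an alternative; 557 of their leave-one-out values kept the call and 169 lost it. The call was lost by 21 of the 113 under the replicate block, 16 with the other control group (78 kept it), 10 with both control groups (84 kept it), 2 under RLE and 1 under DESeq2. Numbers of genes called moved by over 1.5 times as follows; the cause was not tested. DESeq2 called 29 in HX17_CA, 14 in HX17_FA, 17 between HX17_FA and HX17_CA, 5 between HX17_FB and HX17_CB, 9 between HX58_FB and HX58_CB, 3 between HX58_MB and HX58_MA, 3, 4, 24 and 19 for the variety interaction in CA, FA, CB and FB, and 11 and 25 for the acclimation interaction in HX17 and HX58. RLE normalization gave 0 for the variety interaction in CB. An adjusted p under 0.05 with no limit on fold gave 37, 21, 99 and 103 in HX17_CA, FA, CB and FB, 46 and 56 in HX58_CA and FA, 19 and 8 for freezing against chilling in HX17 and 50 and 13 in HX58, 3 between HX58_MB and HX58_MA, 3, 2, 47 and 24 for the variety interaction, and 11 and 36 for acclimation. With both control groups HX17_CA had 19 and HX17_FA 15, and with the other control group 13 and 17. With no filter on low counts there were 13 in HX17_CA, 8 between HX17_FA and HX17_CA, 1 between HX58_MB and HX58_MA, 1 and 5 for the variety interaction in CA and CB, and 4 and 10 for acclimation.

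Leaving out 1 library gave 1 to 7, 5 to 7, 10 to 44 and 27 to 55 genes in HX17_CA, FA, CB and FB, and 5 to 12, 11 to 22, 84 to 111 and 92 to 105 in HX58. It gave 0 to 3 and 1 to 3 for freezing against chilling in HX17, 6 to 10 and 1 to 2 in HX58, 0 to 1 between HX58_MB and HX58_MA, 0 to 1, 0 to 1 and 1 to 4 for the variety interaction in FA, CB and FB, and 0 to 1 and 1 to 12 for acclimation. The replicate numbers did not pair the samples: correlations of deviations ran from -0.46 to 0.243 over 14 comparisons. With the number as a replicate block 10 genes were called in HX58_CA, 3 between HX17_FA and HX17_CA, 1 between FB and CB in each variety and 0 for the variety interaction in CB, and other counts stayed within 1.5 times. Where a group had no count, its gene was also set at its bound against 3 counts; this moved none of the printed medians of a treatment against its control.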
